A study of Rattus norvegicus with 6 samples.

Results

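The genes described here are the expressed rows that carry a long noncoding biotype in the gene count table of a progesterone experiment on rat heart muscle cells. Members were the rows of biotype lincRNA, antisense or processed_transcript whose mean over the 6 libraries was at least 0.5 CPM (a row's counts scaled to the library total). The rule found 259 members among 33565 rows, of which 3230 had one of these biotypes at any level and 1343 of those had at least 1 count. The members comprised 202 lincRNA, 45 processed_transcript and 12 antisense rows, and no row carried the biotype lncRNA. Members were thus chosen by biotype and selected on their mean CPM over all libraries, so the levels are given as a description, and 54 members (31 under 0.5 CPM in the progesterone mean and 23 in the control mean) passed through the group in which they were higher.

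Long noncoding RNAs are transcripts, usually spliced and polyadenylated, that are not translated into a known protein. Some act at the locus they come from, where their transcription can raise or lower a neighbouring gene, some act in trans as scaffolds for chromatin or RNA-binding proteins, and some are the precursors of microRNAs. Many are expressed at low levels in few cell types, and poly(A) selection misses those without a tail. In the heart, such transcripts are known to accompany maturation, stress and growth of cardiomyocytes.

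Primary cardiomyocytes were isolated from 7-day-old Sprague-Dawley rats and cultured with 10% fetal bovine serum. Cells received vehicle (control, 3 libraries) or 100 nM progesterone, a steroid hormone (3 libraries), for 24 h, and RNA-seq was made from mRNA. The labels call the 3 libraries of a group biological replicates. The labels do not say whether these were separate animals or separate cultures. The p-values therefore reflect only how far these samples differ from each other, a spread that may be technical. The single comparison implied is progesterone against vehicle, and the series title names YAP, cardiomyocyte proliferation and cardiac repair.

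Libraries held 21156793 to 25376220 counts, and within groups log2 CPM correlated at 0.988 to 0.990 across genes. Cardiomyocyte markers were present, with a summed level of 18878 to 19115 CPM in the controls and 20330 to 22833 CPM with progesterone. Fibroblast markers summed to 27790 to 28653 and to 37019 to 39213 CPM, smooth muscle and pericyte markers to 2263 to 2626 and to 5235 to 5765 CPM, leukocyte markers to 29.4 to 46.8 and to 146 to 164 CPM, and endothelial markers to 128 to 163 and to 97.3 to 129 CPM. Members of the lists went both ways, with 4 higher and 3 lower of 9 cardiomyocyte, 4 and 3 of 8 fibroblast, 8 and 1 of 9 smooth muscle, 4 and 1 of 5 leukocyte and 2 and 2 of 6 endothelial markers tested. The cultures thus held transcripts of other cell types, whose levels differed between the groups. Their part in the results below was not tested, and in bulk samples more cells of a type and more RNA per cell cannot be told apart.

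The biotype did not describe all members. By the RefSeq annotation of GRCr8, 37 members (31 of the 45 processed_transcript rows, 4 lincRNA and 2 antisense rows) matched a protein-coding gene, 15 a long noncoding RNA gene and 1 a pseudogene, while 206 had no match. The 37 coding-matched rows held 73.2% of all member counts, and the count table lists no protein_coding row for most of these genes. Members are therefore named by their biotype and RefSeq match, and "noncoding" is not used for the 37. Of the 76 well-known long noncoding RNA symbols looked up, 1 was a member, Tug1. None of the 12 imprinted or X-linked, the 24 snoRNA host or the 8 microRNA host symbols was a member, and the absence of a symbol says nothing about the transcript, since most members carry clone names only. By position, the members LOC102549726, Trrap and Taf1 overlap snoRNA rows, among them Snord52 and Gm25744 for LOC102549726.

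Expressed members were low. Their median level was 1.90 CPM over the 6 libraries, 1.48 CPM without the coding-matched rows, against 25.4 CPM for protein_coding rows that passed the same 0.5 CPM limit. The 10 members of highest mean took 66.7% of the member counts. Per length (FPKM, counts scaled to gene length and library total), AC134224.3 had the highest control level of the members named here at 124 FPKM, AABR07039356.2 followed at 112 and AC134224.1 at 80.5 FPKM, above the 43.8 FPKM of AABR07068316.1, which is longer. The threshold was not a gap in the levels. The 3 members just inside, AC116220.1, AABR07057997.1 and AC095947.4, had log2 fold changes between -0.11 and 0.84 that were not called, and just outside lay LOC103690026 (mean 0.4997 CPM), AABR07026509.1 and AABR07051515.2 (0.498 CPM each).

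Progesterone libraries differed from control libraries in 112 of the 251 members that could be tested, 55 higher and 57 lower, at an adjusted p under 0.05 (edgeR's quasi-likelihood test, Benjamini-Hochberg adjustment over all 15075 rows tested). Over all rows 63.0% were called, 31.2% higher and 31.8% lower, so the members' share of 44.6% was below that background. The median log2 fold change of the members was -0.02, beside 0.00 for all rows. Changes of at least 2-fold were found in 25 members that were higher and 30 that were lower, where 7.14% and 9.31% of all rows passed the same limits. Of these, 12 of the 25 and 17 of the 30 were under 0.5 CPM in a group mean and so were members only through the group in which they were high. Among the 201 tested members at 0.5 CPM or more in both group means, 13 were at least 2-fold higher and 13 at least 2-fold lower. In 144 of the 251 tested members (57.4%) the control and progesterone values did not overlap, 68 higher and 76 lower, beside 68.4% of all rows (32.5% higher and 35.8% lower). Upper quartile scaling gave 73 members as higher and 54 as lower, and moved the higher share of all called rows from 49.6% to 60.1%, with the median of all rows at 0.10.

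By biotype, 81 of 194 tested lincRNA rows changed (38 higher, 43 lower), 4 of 12 antisense rows (1 higher, 3 lower) and 27 of 45 processed_transcript rows (16 higher, 11 lower). The coding-matched rows were called in 23 of 37 cases, a share of 62.2%, and the rows of RefSeq long noncoding RNA genes in 6 of 15, 3 in each direction. The share called was highest at the highest level. Among members between 0.5 and 1 CPM 38.3% were called, beside 39.7% of protein_coding rows at that level, and among members at 20 CPM or more 63.0%, beside 72.4%. At 1 to 2 CPM the shares were 34.0% and 51.8%, the widest gap of the 5 ranges.

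**Figure D1:**
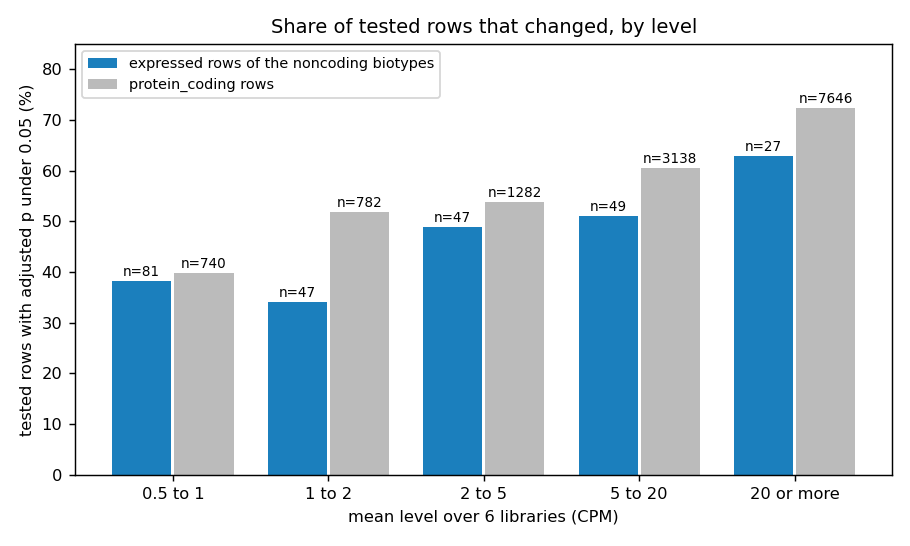
Share of tested rows with an adjusted p under 0.05 (vertical axis, percent) in 5 ranges of mean level (horizontal axis, CPM), for the expressed members (blue) and for protein_coding rows (grey), with the number tested above each bar. The member share is lower in every range and differs least at 0.5 to 1 CPM (38.3% against 39.7%).

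**Figure D2:**
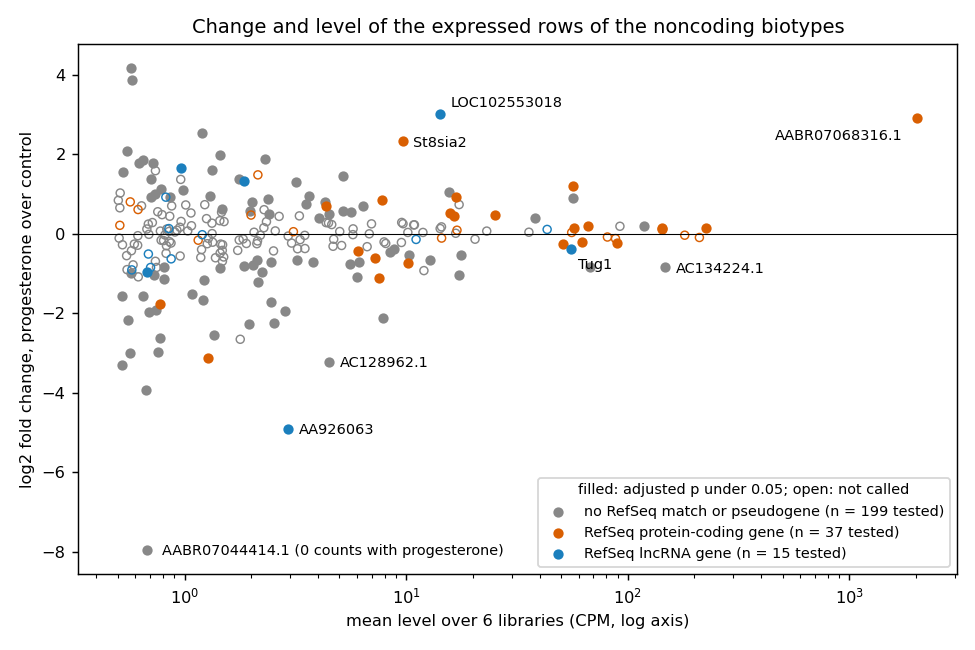
Log2 fold change, progesterone over control (vertical axis), against the mean level over 6 libraries (horizontal axis, CPM, log scale) for the 251 tested members. Filled points were called and open points were not; colours give the RefSeq match. Coding-matched rows hold most of the members at high level, AABR07068316.1 stands alone at the right, and the fitted value of AABR07044414.1, with 0 counts under progesterone, depends on the prior count.

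The most abundant member was AABR07068316.1 on chromosome 9 (97926787 to 98004546, minus strand, in the build of the deposited table, which is not named), a processed_transcript row matched to Col6a3, a chain of the matrix collagen VI. Its level was 492, 491 and 473 CPM in the controls and 3830, 3642 and 3271 CPM with progesterone. Every progesterone library was far above every control library. The log2 fold change was 2.90 ± 0.06 (SE, adjusted p = 4.50e-15, edgeR's quasi-likelihood test). This row alone set the direction of the members' share of each library. Members together took 0.352% ± 0.00696 of control counts and 0.658% ± 0.0293 of progesterone counts (SD, n = 3; exact two-sided permutation p = 0.1, the smallest that 3 against 3 libraries allow). Without AABR07068316.1 the shares were 0.303% and 0.300% (exact permutation p = 0.5), and without all 37 coding-matched rows 0.138% ± 0.0019 and 0.128% ± 0.00371 (exact permutation p = 0.1). The 15 rows of RefSeq long noncoding RNA genes took 0.0134% and 0.0138%.

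Other coding-matched rows moved less or in either direction. St8sia2, matched to a sialyltransferase gene, was read at 2.48, 3.56 and 3.68 CPM in the controls and at 17.2, 16.2 and 14.7 CPM with progesterone. The groups lay far apart, with a log2 fold change of 2.32 ± 0.14 (adjusted p = 1.28e-09, edgeR). Cd93, matched to a lectin-like receptor gene of endothelial and myeloid cells, rose from 34.9 to 78.8 CPM (log2 fold change 1.19 ± 0.12), beside a leukocyte marker sum that was higher and an endothelial marker sum that was lower or overlapping with progesterone, as given above. Vwa3b fell by 3.13 on the log2 scale (± 0.44, SE), and by 3.97 without progesterone replicate 3, its highest progesterone library. Vwa3b was under 0.5 CPM in the progesterone mean, so it was a member only through the controls and its fall is a description. Grm4, matched to a glutamate receptor gene, fell by 1.12. Among the highest rows the differences were small. AABR07001382.1, matched to the nuclear envelope gene Syne1, rose by 0.15, a call lost without control replicate 1 (adjusted p = 0.099), control replicate 2 (0.077) or progesterone replicate 2 (0.083). Itgb5, an integrin gene, rose by 0.11, a call lost without each of the control replicates in turn and without progesterone replicate 3 (adjusted p up to 0.070), and Top2b, a DNA topoisomerase gene, rose by 0.14. Plekha6 fell by 0.23. Smg1, a kinase gene of mRNA decay, had a log2 fold change of -0.04 and Trrap, a histone acetyltransferase scaffold gene, one of -0.09, both uncalled, though Trrap passed without control replicate 1 (adjusted p = 0.043).

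Among the 15 rows of RefSeq long noncoding RNA genes, LOC102553018 rose most. The row lies on chromosome 2 (251534907 to 251607676, plus strand, in the table's build). It was read at 3.78, 3.60 and 2.06 CPM in the controls and at 28.03, 22.6 and 24.99 CPM with progesterone. All progesterone libraries were well above the controls, of which control replicate 3 was the lowest. Its log2 fold change was 3.01 ± 0.20 (SE, adjusted p = 3.23e-06, edgeR). The nearest protein_coding row, AABR07013701.1, starts 372 bases away and had a log2 fold change of -0.37 ± 0.45, which was not called. The promoter window of LOC102553018 from RefSeq (GRCr8, chr2:237225471-237225770, plus strand, 250 bases before the start and 50 after) is shown because this was the strongest rise of a RefSeq long noncoding RNA gene, with capitals on the letters TTTATA, the reverse strand of the TATA box core TATAAA, which begin 3 bases before the start. The window has a GC content of 68%.
LOC102553018: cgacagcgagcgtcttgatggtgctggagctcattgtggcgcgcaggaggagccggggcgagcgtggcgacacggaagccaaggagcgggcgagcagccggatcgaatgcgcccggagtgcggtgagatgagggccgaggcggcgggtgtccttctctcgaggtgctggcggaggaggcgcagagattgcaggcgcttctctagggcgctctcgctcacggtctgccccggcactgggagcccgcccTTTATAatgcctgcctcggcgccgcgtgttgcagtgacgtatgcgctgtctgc

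Motifs were searched on both strands in the RefSeq promoter windows of the 39 members that have one. TATAAA stood in 3 of them (Arid5b, LOC102549726 and LOC102553018) and in 14.2% of the 33469 windows of the genome. The palindromic element shared by the glucocorticoid and progesterone receptors (AGAACA, any 3 bases, TGTTCT) stood in none of the 39 and in 0.0149% of all windows, and its first repeat, AGAACA, in 6 of the 39 and in 20.7% of all windows. The core of the interferon-stimulated response element (GAAA, any 2 bases, GAAA) stood in 1 of the 39 (Cep128) and in 3.92% of all windows. A match is a run of letters, and its absence from a window says only that the letters are not there.

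Tug1, a nuclear long noncoding RNA known to bind chromatin regulators, was lower with progesterone. It was read at 62.3, 64.8 and 63.0 CPM in the controls and at 45.8, 47.7 and 49.6 CPM with progesterone. The groups did not overlap, and the log2 fold change was -0.39 ± 0.05 (SE, adjusted p = 3.61e-06, edgeR). Its head-to-head neighbour Morc2, a chromatin ATPase gene, had a log2 fold change of -0.04 and was not called. LOC102549726, at 41.9 and 44.7 CPM, and LOC100909912, at 11.7 and 10.5 CPM, were not called. Kantr, named for its neighbour Kdm5c, was read at 1.03, 0.607 and 1.10 CPM in the controls and at 0.378, 0.370 and 0.738 CPM with progesterone, with overlapping groups and no call, though it passed without control replicate 2 or progesterone replicate 3 (lowest adjusted p = 0.025). LOC108351370 fell by 0.96, a call that was lost without each replicate in turn except control replicate 3 (adjusted p up to 0.197). Kantr and LOC108351370 were under 0.5 CPM in the progesterone mean, so they were members only through the controls and their values are a description.

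LOC100910237 stands head to head with Rps12, a ribosomal protein gene. It was read at 0.433, 0.434 and 0.526 CPM in the controls and at 1.75, 1.06 and 1.56 CPM with progesterone. The progesterone libraries were all higher, with 37, 23 and 36 counts against 11, 10 and 12, and the log2 fold change was 1.65 ± 0.31 (SE, adjusted p = 0.00027, edgeR). The control mean of LOC100910237 was under 0.5 CPM, so it was a member only through the progesterone group and its rise is a description. Rps12 was read at 269 ± 26.2 and 274 ± 9.55 CPM (SD, n = 3), with a log2 fold change of 0.04 ± 0.07 that was not called. The window of LOC100910237 (RefSeq, GRCr8, chr1:23499840-23500139, minus strand) is shown because it is shared by a pair that differed in response. Its capitals mark the 185 bases between the start used for its own window and that used for Rps12, a stretch with 63.8% GC and 15 CpG dinucleotides.
LOC100910237: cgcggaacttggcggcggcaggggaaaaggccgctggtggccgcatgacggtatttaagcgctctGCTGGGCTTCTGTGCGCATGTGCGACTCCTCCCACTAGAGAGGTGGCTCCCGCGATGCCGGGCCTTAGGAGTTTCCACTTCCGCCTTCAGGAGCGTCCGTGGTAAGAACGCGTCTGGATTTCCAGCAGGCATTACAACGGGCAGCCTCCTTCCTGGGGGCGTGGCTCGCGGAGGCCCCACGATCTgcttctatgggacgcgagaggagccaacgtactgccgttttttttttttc

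The largest fall at 1 CPM or more was that of AA926063, a RefSeq long noncoding RNA gene on chromosome 20 (5486474 to 5499010, minus strand, in the table's build). It was read at 5.75, 5.42 and 5.88 CPM in the controls and at 0.142, 0.139 and 0.260 CPM with progesterone. Each progesterone library held only a few counts, so the row was a member only through the controls, and its values describe it and give no support. The log2 fold change was -4.91 ± 0.26 (SE, adjusted p = 2.10e-10, edgeR). The row ends 548 bases upstream of Daxx, a histone chaperone gene, on the same strand, and Daxx fell from 136 ± 5.17 to 42.2 ± 3.07 CPM (log2 fold change -1.68 ± 0.05).

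AC128962.1, with Daxx and most of Tapbp between it and AA926063, is an antisense row of 717 bases on the plus strand (chromosome 20, 5467942 to 5468658). It overlaps the downstream end of Tapbp, which encodes tapasin, the protein that helps peptides load onto class I histocompatibility molecules. AC128962.1 was read at 8.12, 8.02 and 8.11 CPM in the controls and at 0.945, 0.833 and 0.781 CPM with progesterone. Within each group the libraries were nearly equal, and the groups lay far apart, with a log2 fold change of -3.22 ± 0.17 (SE, adjusted p = 2.36e-10, edgeR). Tapbp fell from 379 ± 10.5 to 27.4 ± 1.03 CPM, by 3.78 on the log2 scale. AABR07044362.4, an antisense row that overlaps the class I rows RT1-N3, RT1-S3 and RT1-T24-4, fell from 4.18 ± 0.314 to 0.866 ± 0.11 CPM (log2 fold change -2.25 ± 0.21), and RT1-N3 from 79.96 ± 2.37 to 5.20 ± 0.49 CPM. No source used here gives the strand setting, so reads of these antisense rows and of their coding partners cannot be told apart, and RT1 rows are similar in sequence.

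The RefSeq promoter windows of both coding partners are shown because Tapbp and RT1-N3 fell with the antisense rows and hold the interferon-stimulated core. They were thus picked for holding the core, which stood in 3.92% of all windows. How many other coding neighbours hold it was not counted, and a part of the core in the falls was not tested. Tapbp (GRCr8, chr20:4967828-4968127, minus strand) has 2 overlapping matches of this core, 26 and 20 bases before the start, and RT1-N3 (chr20:2666239-2666538, plus strand) 1 match on the reverse strand, 207 bases before the start. Capitals mark the matches.
Tapbp: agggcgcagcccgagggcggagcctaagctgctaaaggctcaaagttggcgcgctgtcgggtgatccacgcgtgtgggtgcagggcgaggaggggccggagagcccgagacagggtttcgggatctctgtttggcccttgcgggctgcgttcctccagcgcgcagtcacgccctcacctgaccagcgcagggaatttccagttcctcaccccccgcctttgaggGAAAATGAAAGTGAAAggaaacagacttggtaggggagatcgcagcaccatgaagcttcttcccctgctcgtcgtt
RT1-N3: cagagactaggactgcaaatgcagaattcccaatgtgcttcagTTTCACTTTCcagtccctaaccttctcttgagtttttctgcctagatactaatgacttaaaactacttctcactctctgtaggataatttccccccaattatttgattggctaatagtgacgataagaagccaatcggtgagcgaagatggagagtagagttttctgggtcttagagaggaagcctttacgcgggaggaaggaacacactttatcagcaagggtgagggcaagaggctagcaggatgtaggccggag

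AABR07044362.4 lies inside the rat histocompatibility complex, while AC128962.1 and AA926063 lie just beyond its RT1 rows. Over the stretch of chromosome 20 that holds the RT1 rows (154074 to 5421098), 11 members were tested, of which 1 was higher and 3 were lower. Of all rows tested in the genome, 31.2% were called higher and 31.8% lower, so the members of the stretch were not called lower more often than that. Coding rows of the stretch were lower in 56 and higher in 25 of 115 cases, and of 20 RT1 rows 18 were lower (median log2 fold change -4.45). Besides AABR07044362.4, the lower members there were AABR07044375.2 (3.77 ± 0.346 to 1.13 ± 0.311 CPM) and AABR07044414.1. AABR07044414.1 had 38, 34 and 25 counts in the controls and 0 in every progesterone library, so that its level was at least 29.9-fold lower when the progesterone group is set to 3 counts in all, for counting error only. AABR07044414.1 was thus a member only through the controls. The member that was higher, AABR07044366.1, lies 980 bases from Mdc1, a DNA damage response gene, and rose with it (log2 fold changes 0.74 ± 0.19 and 0.95 ± 0.07). Members between these, such as AABR07044388.2 at 86.8 ± 11.7 and 97.8 ± 5.15 CPM, were not called, although AABR07044388.2 passed without control replicate 3 (adjusted p = 0.00053).

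**Figure D3:**
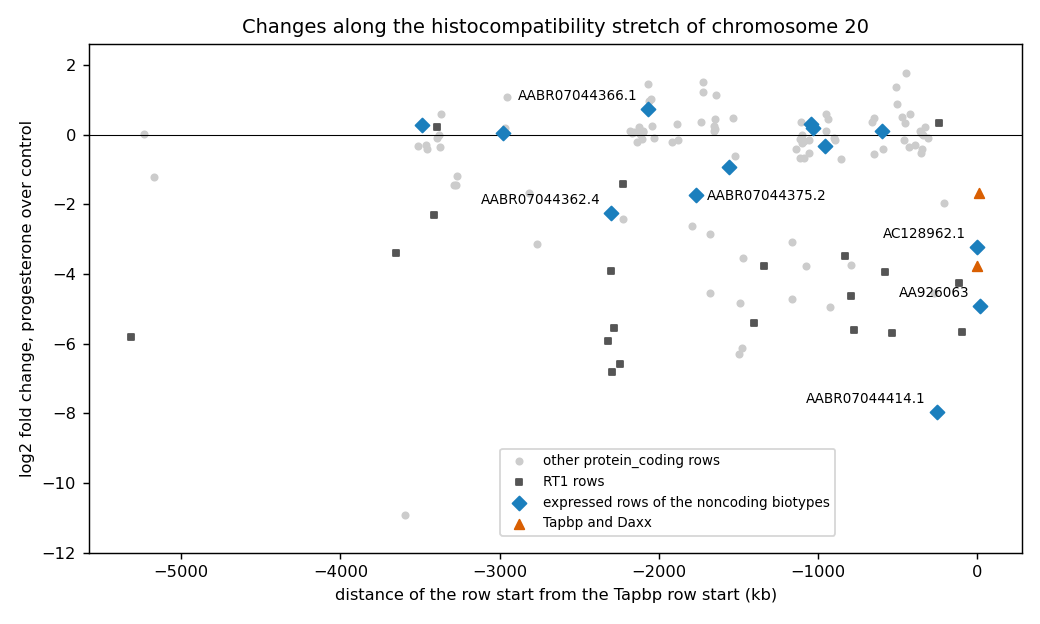
Log2 fold change, progesterone over control (vertical axis), of the rows of the RT1 stretch and of AC128962.1, AA926063, Tapbp and Daxx, which lie just beyond it, against the distance of each row's start from the Tapbp row's start (horizontal axis, kb). Most RT1 rows (squares) lie below -2, while the members (diamonds) range from 0.74 to the fitted -7.95 of AABR07044414.1, which had no count with progesterone.

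The most abundant member without a coding match was AC134224.1, which adjoins AC134224.2 and AC134224.3 on the minus strand of chromosome 1. AC134224.1 was read at 196, 197 and 179 CPM in the controls and at 120, 93.0 and 103 CPM with progesterone, and AC134224.3 at 88.6, 84.8 and 86.7 against 57.4, 41.3 and 45.8 CPM. Both groups were separate in both rows, with log2 fold changes of -0.84 ± 0.09 and -0.84 ± 0.11 (adjusted p = 5.06e-05 and 0.00082, edgeR). AC134224.2 went the other way in its values, 12.7, 13.7 and 12.9 against 30.7, 14.2 and 19.9 CPM, but was not called (log2 fold change 0.73 ± 0.31, adjusted p = 0.10). It was called without progesterone replicate 1 or 2, with log2 fold changes over the replicates left out from 0.40 to 0.95. AABR07039356.2, on the X chromosome, rose from 111 to 127 CPM (log2 fold change 0.21 ± 0.05), beside 0.33 for LOC680227, which it overlaps on the opposite strand.

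**Figure D4:**
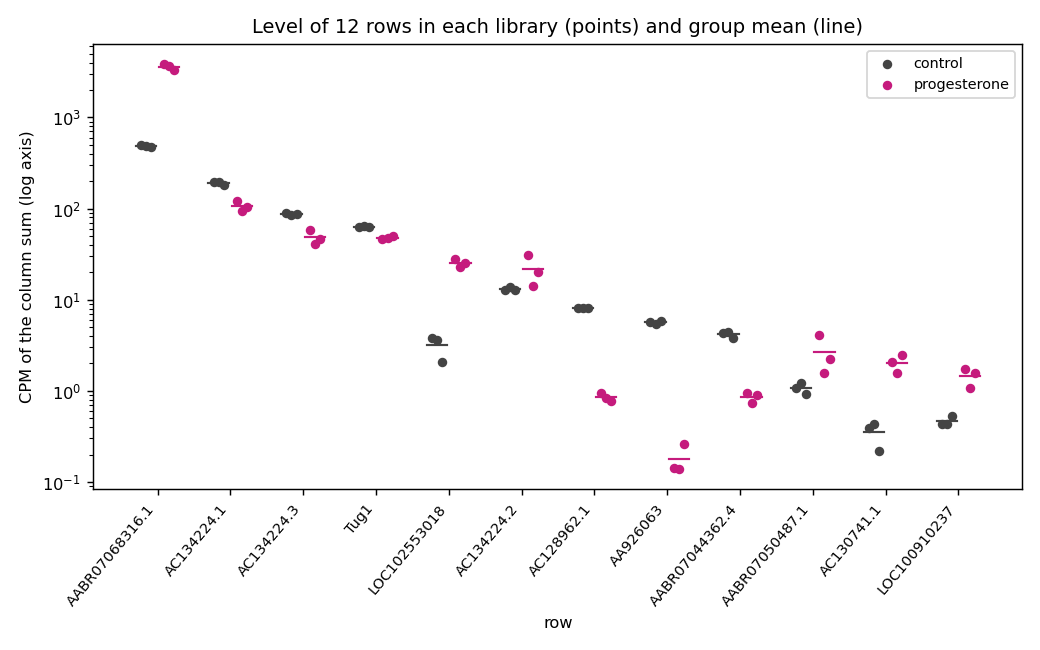
Level of 12 members in each library (points, CPM of the library total, log scale) with the group mean as a line, controls in grey and progesterone in magenta. The libraries of a group lie close together in most rows, AC134224.2 and AABR07050487.1 are spread by progesterone replicate 1, and AA926063 lies at 0.139 to 0.260 CPM with progesterone.

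Among the other members that rose most, AC130741.1 on chromosome 16 was read at 0.394, 0.434 and 0.219 CPM in the controls and at 2.08, 1.57 and 2.47 CPM with progesterone, a log2 fold change of 2.54 ± 0.32 (adjusted p = 5.24e-06, edgeR). Its tail-to-tail neighbour Ankle1, a DNA endonuclease gene, rose from 6.37 ± 0.597 to 25.2 ± 2.66 CPM. AC130741.1 was under 0.5 CPM in the control mean, so it was a member only through the progesterone group and its rise is a description. AABR07012100.2, downstream of the ribosomal protein gene Rps3a, rose by a log2 fold change of 1.98 ± 0.29, while Rps3a rose by 0.22. AABR07065531.26 rose by 1.88, AABR07049695.3, near Foxe3, by 1.60, and AABR07072602.1, upstream of the fibrillin gene Fbn2, by 1.44 beside 1.53 for Fbn2. Foxe3 had no counts in any library and was not tested. Foxd2, on the other side of AABR07049695.3, rose by 1.27 ± 0.35 at a low level (0.377 to 0.915 CPM).

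Among the others that fell most were AABR07035839.1 (log2 fold change -2.54 ± 0.29), AABR07016572.1 (-2.27 ± 0.27), AABR07011996.1 (-2.11 ± 0.13) and AABR07054490.1 (-1.93 ± 0.19). AABR07011996.1 was the most abundant of these, at 11.3, 13.2 and 13.99 CPM in the controls and 2.69, 2.92 and 3.21 CPM with progesterone. The groups were separate, and its nearest coding row, Tdo2, was too low to be tested. AABR07035839.1 fell while its neighbour Tbl2 rose (0.73), and AABR07054490.1 fell beside Top1, which was not called (-0.04). AABR07035839.1 was under 0.5 CPM in the progesterone mean, so it was a member only through the controls and its fall is a description.

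The nearest protein_coding row by start was found for each member, at a median distance of 30096 bases, and 65 members had one within 10000 bases. In 61 pairs both rows were called, and 43 of these (70.5%) had the same direction, where the same count over coding rows and their nearest coding row gave 2601 of 4467 (58.2%). Within 10000 bases the direction was shared by 18 of 19 member pairs (94.7%) and by 602 of 949 coding pairs (63.4%). Farther away it was shared by 25 of 42 (59.5%) and by 56.8%. Leaving out the 3 pairs whose spans overlap, 15 of 16 had the same direction within 10000 bases. With the nearest row chosen by the gap between spans, the direction was shared by 44 of 66 member pairs (66.7%) and 58.4% of coding pairs, and within 10000 bases by 30 of 36 (83.3%) and 59.5%. These counts have no test, rest on few pairs, and include pairs whose reads may not be separable. They also include members that passed 0.5 CPM only through the group in which they were higher, such as AA926063, AABR07015917.1 and AC130741.1. The coding rows were not chosen by that limit, so the shares of members and coding rows are set side by side as a description.

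The 10 pairs within 10000 bases that rose together included AABR07021823.2 beside Exo1, an exonuclease gene of DNA repair (2.08 ± 0.49 and 1.94 ± 0.14; 2.99 for the member without control replicate 1), AABR07002910.1 beside Arhgap33 (1.77 and 2.07), and AABR07030366.1 beside Col1a1, a collagen I gene (0.55 ± 0.17 and 0.17 ± 0.05). The call of AABR07030366.1 was lost without progesterone replicate 1 (0.36, adjusted p = 0.081). AABR07021823.2 and AABR07002910.1 were under 0.5 CPM in the control mean. Both were thus members only through the progesterone group, and their rises are a description. The 8 that fell together included AABR07002674.1 beside Rtn2 (-2.96 ± 0.50 and -1.005 ± 0.09), AABR07007026.1 beside Adrb1, the main beta-adrenergic receptor gene of cardiomyocytes (-0.72 ± 0.21 and -0.68 ± 0.08; the member's adjusted p was 0.052 without progesterone replicate 3), and AABR07015917.1 beside Aebp1. AABR07015917.1 had 22, 31 and 36 counts in the controls and 0, 4 and 1 with progesterone, and Aebp1, 96 bases away, fell from 613 ± 41.5 to 240 ± 27 CPM. The fitted log2 fold change of AABR07015917.1, -3.94, was -5.49 without progesterone replicate 2. AABR07002674.1 and AABR07015917.1 were under 0.5 CPM in the progesterone mean, so they were members only through the controls and their falls are a description. The pair that differed in direction was AABR07042454.2, which fell by 0.72, and Haus7, a mitotic spindle gene, which rose by 0.91.

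**Figure D5:**
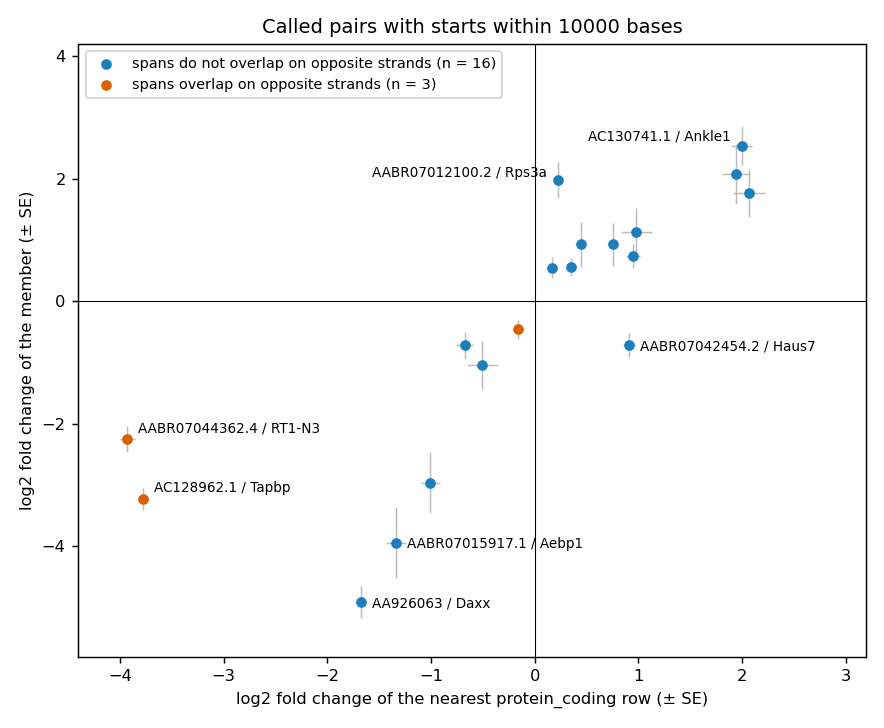
Log2 fold change ± SE of each called member (vertical axis) against that of its nearest protein_coding row (horizontal axis), for the 19 pairs whose starts lie within 10000 bases and whose rows were both called. Of the pairs, 18 lie in the quadrants of equal direction and AABR07042454.2 with Haus7 does not; orange points mark spans that overlap on opposite strands.

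By span rather than start, the arrangement differed. Members downstream of their nearest coding row on the same strand shared its direction in 11 of 12 called pairs, and those that overlap it on the opposite strand in 6 of 6. Members upstream on the same strand shared it in 12 of 24, tail-to-tail pairs in 5 of 10 and head-to-head pairs in 8 of 12. Coding pairs of any arrangement shared it in 58.4% by the same gap rule. Where spans overlap on opposite strands, reads of the 2 rows may not be separable. No test was made of these differences between arrangements.

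Some members shared their nearest coding gene. The 3 around Mycbp2, a ubiquitin ligase gene, all fell: AABR07019085.1 by 1.03, AABR07019086.1 by 1.09 and AABR07019088.1 by 1.23, beside 1.10 for Mycbp2 itself, whose row spans 87506959 to 93868301 of chromosome 15 and overlaps the latter pair. The call of AABR07019085.1 was lost without progesterone replicate 2 (adjusted p = 0.076). The 3 on chromosome 8 whose nearest coding start is that of Nr2e3 all rose, AABR07070307.1 from 39.9 ± 1.39 to 73.2 ± 1.58 CPM, AABR07070310.1, matched to Thsd4, from 5.604 ± 1.05 to 9.94 ± 0.465 CPM, and AABR07070312.1 from 10.2 ± 0.391 to 20.9 ± 1.69 CPM, while Nr2e3 was too low to be tested. AABR07070307.1 (64811941 to 64833697) and AABR07070310.1 (64817191 to 65003296) overlap on the minus strand, and whether they are separate transcripts was not tested. AABR07070312.1 starts 322228 bases from Nr2e3, and by span its nearest coding row is Lrrc49, 79317 bases away, which fell by 0.74. The 3 next to Hand2, a transcription factor gene of heart development, were not called (log2 fold changes -0.02, 0.03 and 0.28), though AABR07025387.1 passed without progesterone replicate 2 (adjusted p = 0.0077), and Hand2 was not called either. Hand2 was read at 11.5, 12.1 and 15.2 CPM in the controls and at 13.1, 2.78 and 12.5 CPM with progesterone, so that progesterone replicate 2 alone lay below the controls' range. AABR07058158.1, downstream of the growth regulator gene Myc, was read at 16.8 and 16.7 CPM and had a log2 fold change of 0.01 ± 0.09, where Myc rose by 0.27.

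Of the members within 5000 bases of a microRNA row, AABR07072236.1 near Mir568 (log2 fold change 0.13 ± 0.09), AABR07042514.3 near Mir322-2, Mir503-2 and Mir351-2 (0.65 ± 0.54) and AABR07044389.1 near AABR07044389.2 (-0.33 ± 0.15) were not called, though AABR07044389.1 passed without control replicate 3 (adjusted p = 0.033), and AABR07051308.1 near AABR07051312.1 was not tested. AABR07050487.1, near Mir34a, was higher with progesterone, as were a pair of members at a greater distance upstream of Mir34b and Mir34c. The miR-34 family is known as a target of the tumour suppressor p53 and, in the mouse heart, as a restraint on cardiomyocyte survival and regeneration. These members were singled out after their values were seen. The mature sequences from RefSeq (GRCr8) are shown because the 3 microRNAs share a seed, bases 2 to 8, which the capitals mark.
rno-miR-34a-5p: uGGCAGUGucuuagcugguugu
rno-miR-34b-5p: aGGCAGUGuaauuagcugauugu
rno-miR-34c-5p: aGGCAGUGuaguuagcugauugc

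AABR07050487.1, matched to the long noncoding RNA gene LOC103692514, ends 4646 bases before the Mir34a row on the same strand of chromosome 5. It had 27, 28 and 21 counts in the controls and 87, 34 and 52 with progesterone. Progesterone replicate 1 was the highest, and the log2 fold change of 1.32 ± 0.32 (adjusted p = 0.0029, edgeR) was 0.86 without it (adjusted p = 0.018). AABR07070161.1 and AABR07070161.4 lie 42468 and 49821 bases upstream of the Mir34b row on the minus strand of chromosome 8, with the coding row Btg4 between, and Mir34c follows Mir34b. AABR07070161.1 had 2, 3 and 0 counts in the controls and 32, 18 and 21 with progesterone, and AABR07070161.4 had 1, 3 and 0 against 22, 21 and 29. Both were near the lower limit of detection in every control library and were members only through the progesterone group, so the values below describe them and give no support. Their fitted log2 fold changes were 3.86 ± 0.58 and 4.17 ± 0.56 (adjusted p = 2.78e-05 and 1.05e-05, edgeR), and 4.54 and 5.39 without control replicate 2. The hairpin rows themselves held 1, 1 and 0 against 5, 2 and 2 counts for Mir34a and none for Mir34b and Mir34c, and the mature microRNAs are not measured in libraries of mRNA.

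Of the 112 called members, 85 stayed called in all 6 fits that left out a library, 27 lost the call in at least 1, and none changed sign. A further 35 members that were not called passed in at least 1 of those fits.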

How the data were processed

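mRNA was sequenced in 6 libraries, which were grouped by their titles. The labels' protocols name the TruSeq RNA kit and give no strand setting. Bowtie 0.12.2 and mm8 stand in the submitters' processing notes; mm8 is a mouse build and the row identifiers are those of rat. Which rat build, annotation and counting tool were used is unknown from these sources. The deposited table holds raw counts for each gene, and the authors' FPKM values, which divide counts by gene length and library total.

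CPM was computed from counts and column sums, as mean ± SD over 3 libraries. The test over all rows was that of edgeR 4.0.16 (R 4.3.3; filterByExpr with minimum count 10 and minimum total 15, TMM scaling with factors 0.984 to 1.01, robust quasi-likelihood fit, Benjamini-Hochberg adjustment at 0.05), after a test on simulated data. The SE comes from the F statistic. Of the 259 members 8 failed the filter. The biological coefficient of variation was 9.04%. Rows under 1 CPM rest on few counts a library, which limits their precision.

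Members and lists were chosen with earlier results of these data known. RefSeq names (GRCr8) came through gene identifiers and symbols; coordinates without a build are the table's. The named members are the 10 of highest level, the 8 that rose and the 8 that fell most among those called at 1 CPM or more with groups that do not overlap, a list of known symbols, those at the 0.5 CPM limit, called members whose start lies closest to a coding start, and those next to listed heart genes; others are singled out after their values were seen. Alternatives were other scalings and filters, DESeq2 1.42.0, limma 3.58.1 on log2(FPKM + 1) and log2(FPKM + 0.1), the replicate number as a block and each library left out. A neighbouring gene of some members is not reported here.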

Additional observations from a re-analysis of the deposited data

How the results depend on the processing

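The count of called members was 112 and stayed within 1.5 times of it under every alternative run, from 80 of 201 members at 0.5 CPM or more in both group means to 128 of 279 at a mean of 0.25 CPM. It was 102 with DESeq2, 124 and 120 with limma on log2(FPKM + 1) and log2(FPKM + 0.1), and 90 of 179 with a filter of 1 CPM in 3 libraries. Alternatives chosen after seeing the data gave 89 of 214 without coding-matched rows, 85 of 206 for lincRNA and antisense rows, and 112 of 247 without rows of which a single library held most counts. Leaving out each replicate gave 98 to 109 members, 8686 to 9131 genes against 9497, a share difference of 0.292 to 0.321 percentage points, and 33 to 40 neighbour pairs of equal direction. The difference in the members' share of counts, 0.306 percentage points, became -0.0036 without the most abundant member and -0.00981 without the coding-matched rows, as these hold most of the counts. The count of neighbour pairs of equal direction, 43 of 61, was 18 of 19 within 10000 bases and 20 of 28 on opposite strands, since fewer pairs enter. The labels' replicate numbers gave no pairing: deviations of same-numbered libraries correlated at 0.0492, 0.018 and -0.000936. With the replicate number as a block, 112 members (52 higher, 60 lower) and 9508 genes were called. Over the named members 554 values stayed on their side of the threshold, 19 lost a call, 8 gained one and no call turned direction. Some named members that were not called changed sign with a library left out, such as Smg1 (log2 fold changes from -0.09 to 0.01) and AABR07057997.1 (-0.34 to 0.24). Depth limits the rows under 1 CPM.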

Other observations

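In 8 members a single library held most of the counts, of which 4 were tested and not called and 4 failed the filter and were not tested. AC127076.2 had 315 counts in control replicate 1 and 3 to 6 in the other libraries, and AABR07066020.1 had 269 in control replicate 3 and 2 to 14 elsewhere. AC141521.1 had 220 counts in control replicate 1 and 5 to 12 elsewhere. AABR07044962.1, matched to Ranbp2, had 192 counts in progesterone replicate 3 and 67 in control replicate 2, beside 6 to 13 in the rest. AABR07000382.1 had 93 and 175 counts in progesterone replicates 2 and 3 and 2 to 5 in the rest. LOC100909609 had 67 counts in progesterone replicate 2 and 3 in all controls together, a pooled ratio of 24.2 with an exact 95% interval of 7.92 to 120 for counting error only, which rests on that library. LOC108348049 and AABR07013729.1 peaked in the same library, with 65 and 51 counts.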
